A study of Homo sapiens with 6 samples.

Results

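The genes of chromosome 18 were compared between KM12SM and SW620, a pair of established human colorectal cancer cell lines. Every probe set whose identifier places it on chromosome 18 was taken as a member, and these were 292 of 21448 probe sets. This choice was made with earlier results of these data known. KM12SM is a liver-metastatic derivative of the KM12 line and SW620 derives from a lymph node metastasis. The paper grew its lines in DMEM with serum and named no treatment and no separate medium for the array RNA. Each line was profiled on 3 Clariom S arrays, each from its own RNA preparation. Whether the preparations go back to separate cultures is not stated, and the p-values therefore reflect only how far these arrays spread, possibly for technical reasons. Each line stands for 1 tumour. In RNA of a whole culture, fewer cells with a transcript and less of it per cell cannot be told apart.

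Chromosome 18 is small and poor in genes, and loss of its long arm, 18q, is among the most frequent losses in colorectal cancer. The long arm carries SMAD4, the common mediator of TGF-beta and BMP signalling, and DCC, a netrin receptor that was first described as deleted in this tumour. It also carries a cluster of desmosomal cadherins and a cluster of clade B serpins. The short arm, 18p, carries TYMS, which encodes thymidylate synthase, the target of fluorouracil. SW620 is known to have lost 18q, and the question put to the arrays was whether chromosome 18 genes were lower in SW620 more often than genes of the other autosomes. The arrays measured RNA and not DNA copies, so gene dosage was not tested.

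The promoters of DSC2, DSG3, DSG2 and SERPINB5 are shown as examples from 18q. SERPINB5 and DSC2 had the largest differences on the chromosome, and the 3 cadherins lie close to each other. Other genes of 18q that are not shown, such as LIPG and ZNF521, differed more than DSG2. Each window runs from 250 bases before to 50 after the start of the gene in RefSeq on GRCh38.p14, and is written 5′ to 3′ on the strand of the gene. Capitals mark the E-box CACCTG or its reverse complement CAGGTG, the sequence bound by the SNAI and ZEB repressors of epithelial genes. DSC2 has a further window, with no E-box, which is not shown. The windows of SMAD4 and APCDD1 were also read, held 0 E-boxes and are not shown. The windows lie at chr18:31102372-31102671, minus strand for DSC2, chr18:31447491-31447790, plus strand for DSG3, chr18:31497927-31498226, plus strand for DSG2 and chr18:63476708-63477007, plus strand for SERPINB5.
DSC2: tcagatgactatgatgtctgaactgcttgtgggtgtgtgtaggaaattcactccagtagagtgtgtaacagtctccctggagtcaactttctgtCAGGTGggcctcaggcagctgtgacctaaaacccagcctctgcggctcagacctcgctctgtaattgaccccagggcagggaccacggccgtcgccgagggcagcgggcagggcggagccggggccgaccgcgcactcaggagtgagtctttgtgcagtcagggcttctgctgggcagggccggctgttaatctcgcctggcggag
DSG3: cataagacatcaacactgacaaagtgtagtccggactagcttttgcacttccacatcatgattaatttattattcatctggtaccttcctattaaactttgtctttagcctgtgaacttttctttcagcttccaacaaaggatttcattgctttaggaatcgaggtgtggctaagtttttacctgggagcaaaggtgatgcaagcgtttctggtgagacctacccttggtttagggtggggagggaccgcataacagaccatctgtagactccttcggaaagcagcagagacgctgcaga
DSG2: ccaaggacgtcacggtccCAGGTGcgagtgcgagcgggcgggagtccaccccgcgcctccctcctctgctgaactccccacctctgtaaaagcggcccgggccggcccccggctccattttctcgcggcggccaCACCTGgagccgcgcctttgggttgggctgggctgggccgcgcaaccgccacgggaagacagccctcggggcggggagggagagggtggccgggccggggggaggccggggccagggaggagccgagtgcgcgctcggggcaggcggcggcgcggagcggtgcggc
SERPINB5: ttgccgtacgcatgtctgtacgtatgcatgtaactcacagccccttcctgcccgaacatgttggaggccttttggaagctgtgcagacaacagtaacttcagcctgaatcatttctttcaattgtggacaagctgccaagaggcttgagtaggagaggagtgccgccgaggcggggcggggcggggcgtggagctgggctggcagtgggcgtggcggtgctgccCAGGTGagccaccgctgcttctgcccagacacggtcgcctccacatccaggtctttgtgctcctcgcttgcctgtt

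The window of DSG2 held 2 E-boxes, those of DSC2 and SERPINB5 held 1 each and that of DSG3 held 0. The E-box was present in 20.6% of 35116 promoter windows of all genes, in 16.9% of 349 windows of chromosome 18 members, in 23.5% of 68 windows of members lower in SW620 and in 23.3% of 60 windows of members higher in SW620. A match describes the letters of the window and nothing about binding. Of the 250 members with a gene symbol, 222 had at least 1 window.

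Values are log2 signals, and differences are given as KM12SM minus SW620, so that a positive difference is a lower signal in SW620. A probe set was called lower or higher in SW620 at an adjusted p under 0.05 from limma, adjusted over all 21448 probe sets. The arrays of 1 line correlated at Pearson r of 0.9807 to 0.9922 over all probe sets and those of different lines at 0.9195 to 0.9255. The median standard error of a difference was 0.186 for the members and 0.183 for all probe sets. All 11 measured markers of colorectal epithelium were at or above the median signal of 6.75 in KM12SM and 6 were in SW620. Their median signal was 10.16 in KM12SM and 8.03 in SW620. EPCAM, an epithelial surface protein, had a mean signal of 11.92 in KM12SM and 11.74 in SW620, whereas CDH1, which encodes E-cadherin, had 9.25 and 5.55. VIL1, an actin-binding protein of the brush border, was at 7.52 and 8.33. The 5 measured fibroblast markers all had a higher mean in SW620, with a median of 5.70 in KM12SM and 7.54 in SW620. The gap in medians mostly reflects LUM, which encodes lumican and was at 3.93 and 9.36. The other fibroblast markers were closer: COL1A1 at 7.22 and 7.54, COL1A2 at 7.99 and 8.31, DCN at 5.70 and 6.04 and PDGFRB at 4.74 and 5.05. Values after ± are standard errors of a difference unless given as SD.

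Over the whole chromosome, more probe sets were called lower than higher in SW620, and the median hardly moved. Of the 292 probe sets, 56 were lower in SW620 (19.2%), 39 were higher (13.4%) and 197 were not called. Over all probe sets of the array 12.6% were called lower and 12.4% higher, and over the 19647 probe sets of the other autosomes 13% and 12%. Chromosome 13, with 22.7% lower, was the single other autosome with a larger share, and chromosomes 8 (19.2%) and 4 (19.1%) had nearly the same share. The median difference was 0.047 over chromosome 18 and 0.013 over the other autosomes, and the gap of 0.033 was within its SD between arrays of 0.040. The gap turned to -0.013 without SW620 replicate 3 and to -0.0070 with array weights.

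The arms moved in opposite directions. Gene positions were available for the 250 members with a symbol, of which 63 lie on 18p and 187 on 18q. The last gene of 18p with a probe set was POTEC and the first of 18q was ROCK1. The other 42 members have no symbol here and could not be placed. Of the 18q probe sets 50 were lower in SW620 (26.7%), 13 were higher (6.95%) and 124 were not called. Of the 18p probe sets 1 was lower (1.59%), 23 were higher (36.5%) and 39 did not pass. Of the 42 without a symbol 5 were lower and 3 were higher.

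**Figure D1:**
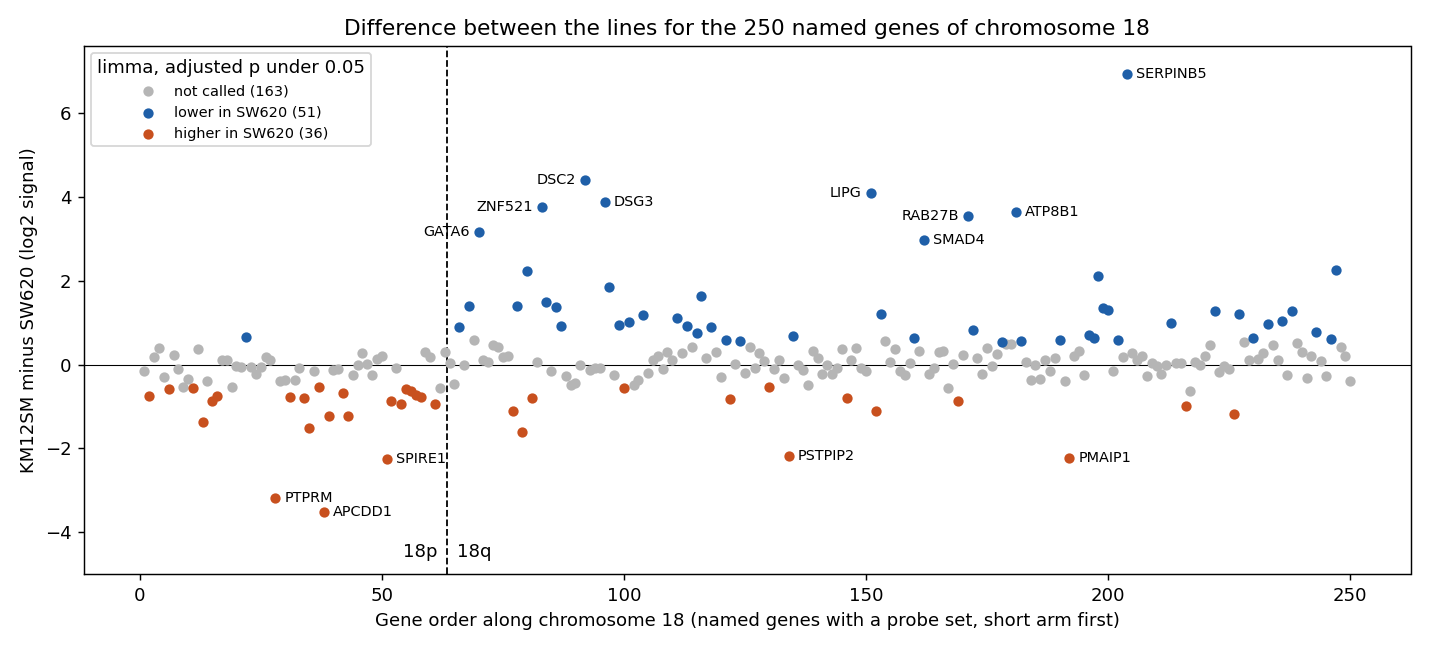
Difference in log2 signal, KM12SM minus SW620, for each of the 250 named genes in their order along the chromosome, with the short arm to the left of the dashed line. Blue points were lower in SW620 (51) and orange points higher (36) by limma. The orange points are frequent on 18p and the blue points on 18q.

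The median difference was -0.30 with an SD between arrays of 0.049 on 18p, and 0.15 with an SD of 0.056 on 18q. The 3 SW620 arrays stood at 0.177, 0.193 and 0.105 above the midpoint of the lines on 18p, in median over its probe sets, and the 3 KM12SM arrays at -0.188, -0.205 and -0.103. On 18q the KM12SM arrays stood at 0.052, 0.095 and 0.148 and the SW620 arrays at -0.087, -0.082 and -0.128. In this measure KM12SM and SW620 were fully apart on both arms. On the other autosomes the 6 arrays lay between -0.018 and 0.032.

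The probe sets were also divided by their mean signal over the 6 arrays, at the median of all probe sets. Among the 32 probe sets of 18p at or above the median signal, 18 were higher in SW620 (56.2%) and 0 were lower by limma (also 0 at an unadjusted p under 0.05), with a median difference of -0.56 and quartiles of -0.81 and -0.25. Among the 79 such probe sets of 18q, 34 were lower in SW620 (43%) and 4 were higher (5.06%), with a median of 0.42 and quartiles of 0.027 and 0.99. Over all probe sets at or above the median signal, 17.1% were called lower and 16.9% higher. SW620 replicate 3 lay furthest out over these probe sets of 18q, at -0.415 from the midpoint against -0.145 and -0.093 for the other SW620 arrays. It was also the lowest SW620 array over such probe sets of 18p (0.129 against 0.357 and 0.463) and of the other autosomes (-0.077 against 0.018 and 0.040). This division uses both lines, so a gene can be kept by its signal in 1 line: 7 of the 34 lower on 18q were below the median signal in SW620, and 1 of the 18 higher on 18p was below it in KM12SM. The shares are therefore a description. The 4 that were higher on 18q were PMAIP1, ACAA2, TIMM21 and IMPACT.

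**Figure D2:**
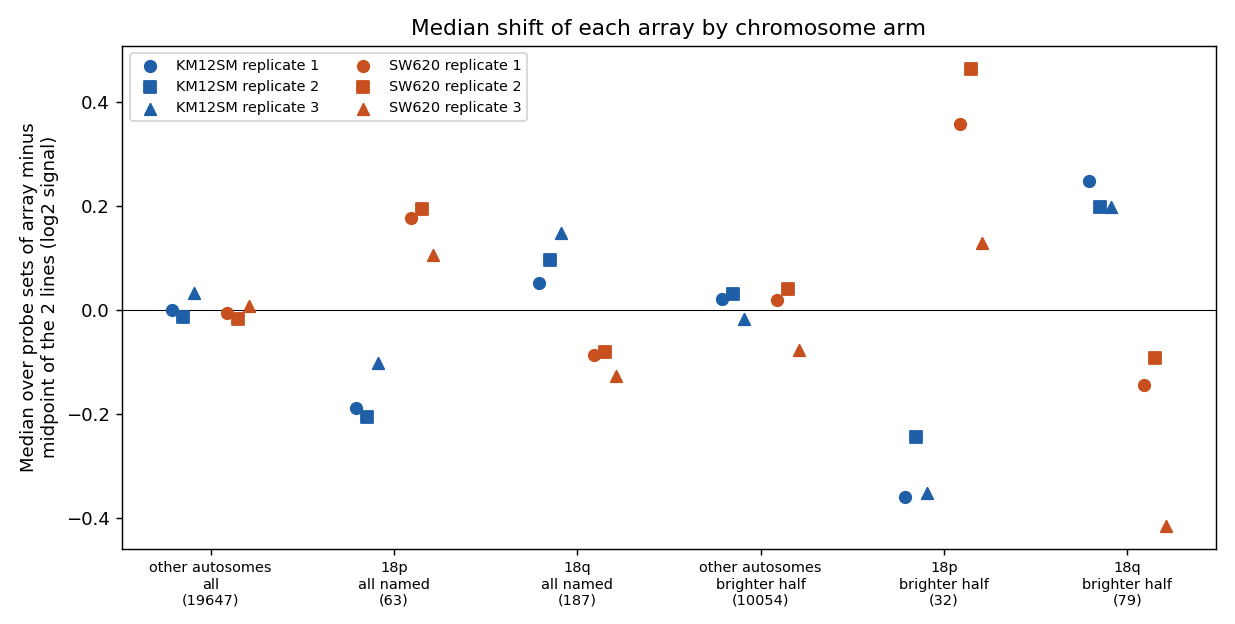
Median, over the probe sets of each group, of the signal of an array minus the midpoint of the means of both lines, in log2 units, for each of the 6 arrays. Blue marks are KM12SM and orange marks SW620, with the number of probe sets in brackets. The brighter probe sets are those at or above the median signal, and the arrays of the lines lie on opposite sides of 0 on 18p and 18q.

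The same contrast was seen without a model. The 3 arrays of 1 line all lay above the 3 of the other for 62 probe sets of 18q that were lower in SW620 (33.2%) and for 23 that were higher (12.3%). On 18p these were 2 and 27 probe sets (3.17% and 42.9%). Over all probe sets the shares were 19.1% lower and 18.6% higher.

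Among 39 chromosome arms with at least 20 named probe sets, 18p had the lowest median difference and 18q the highest. The median of 18p (-0.30) was followed by that of 5p (-0.16), and the share of probe sets higher in SW620 (36.5%) by that of 5p (31.6%). The median of 18q (0.147) was followed closely by that of 8q (0.137), and the 2 lay within the SD between arrays of 18q (0.056). The share of 18q lower in SW620 (26.7%) was followed by that of 13q (24.7%). Among probe sets at or above the median signal, 18q was again first, whereas 5p (-0.59) had a lower median than 18p (-0.56). The share of such probe sets higher in SW620 was 56.2% on 18p, 55.9% on 5p and 46.7% on 20p. These ranks are a description and were not tested.

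**Figure D3:**
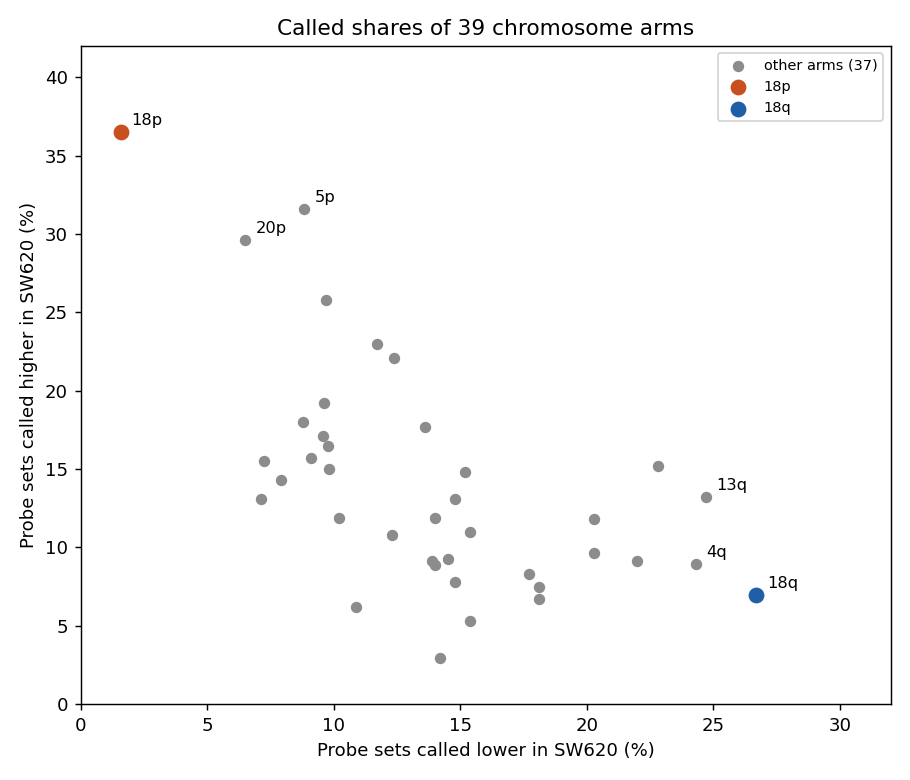
Share of probe sets called higher in SW620 against the share called lower, both in percent, for 39 chromosome arms. 18p lies at the upper left (1.59% lower, 36.5% higher) and 18q at the lower right (26.7% lower, 6.95% higher) of the 37 other arms.

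The differences were spread along 18p and less evenly along 18q. In 3 blocks of 21 neighbouring genes, 18p had median differences of -0.30, -0.36 and -0.25, with 6, 8 and 9 genes higher in SW620. In 9 blocks of 20 or 21 genes on 18q, between 1 and 8 genes were lower in SW620. The block with 1, from RIT2 to SMAD7, had 3 genes higher and a median of -0.070. The block that follows the first, from PSMA8 to KLHL14 and with the desmosomal cadherins, had a median of -0.087 with 8 genes lower and 1 higher. The block from SERPINB10 to CNDP2 had a median of 0.047 with 4 genes lower and 2 higher.

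On 18q the largest difference was that of SERPINB5, which encodes maspin, a serpin of epithelial cells without protease inhibitor activity. Its log2 signal was 9.96, 10.11 and 10.33 on the KM12SM arrays and 3.27, 3.34 and 2.98 on the SW620 arrays. The SW620 values were among the dimmest on the array, so the 123-fold difference (6.94 ± 0.18, adjusted p = 6.44e-13) is limited by the background. SERPINB8, of the same clade, fell from 6.95 ± 0.21 to 5.96 ± 0.24 (SD, n = 3, adjusted p = 0.000836). The other 7 measured serpins of the cluster did not pass the test.

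The desmosomal cadherins, which join epithelial cells at desmosomes, split into 3 genes that were lower in SW620 and 4 that did not pass. DSC2 had signals of 9.98, 9.99 and 10.33 in KM12SM and of 5.60, 6.15 and 5.31 in SW620 (difference 4.41 ± 0.21, adjusted p = 2.61e-10). DSG3 had 7.32, 7.81 and 7.76 against 3.41, 3.75 and 4.10 (3.88 ± 0.20, adjusted p = 7.91e-10), a size limited by the background in SW620. The same limit holds for ZNF521, RAB27B and LIPG in SW620 and for SPIRE1, RAB31, PSTPIP2 and CABYR in KM12SM. DSG2, the desmoglein of simple epithelia, had 10.55, 10.45 and 10.86 against 8.80, 8.97 and 8.54 (1.85 ± 0.18, adjusted p = 1.24e-06). In DSC2, DSG3 and DSG2 every KM12SM array was above every SW620 array. DSC1, DSC3, DSG1 and DSG4 were dim in both lines, with means between 3.83 and 4.45, and differed by -0.14 to -0.013, without passing the test. Of the 11 epithelial markers 10 had a lower mean in SW620, with VIL1 the exception, and the part of this in the cadherin differences was not tested.

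Of the SMAD genes, which carry TGF-beta and BMP signals to the nucleus, SMAD4 had signals of 8.26, 8.32 and 8.71 in KM12SM and of 5.45, 5.40 and 5.49 in SW620 (2.98 ± 0.18, 7.91-fold, adjusted p = 2.84e-09). SMAD2 and SMAD7, also on 18q21, differed by 0.37 and 0.11 and did not pass (adjusted p = 0.274 and 0.761).

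Of 19 measured candidate suppressors of 18q in colorectal cancer, 8 were lower in SW620, 1 was higher and 10 did not pass, with a median difference of 0.33. The share lower was thus 42.1%, against 26.7% over 18q, where all 19 lie, and 12.6% over all probe sets. Among 18q probe sets at or above the median signal it was 43%. The list mixes bright and dim genes and was chosen with earlier results of these data known, so the shares are a description. Beside SERPINB5 and SMAD4, ATP8B1, a phospholipid flippase, had the largest difference, with 10.68, 10.48 and 10.52 in KM12SM and 7.26, 7.15 and 6.38 in SW620 (3.63 ± 0.22, adjusted p = 3.25e-09). PHLPP1, a phosphatase of AKT, was lower by 1.31, SOCS6, a suppressor of cytokine signalling, by 1.28, and ZNF516, a zinc finger protein, by 1.03. PIGN, an enzyme of the GPI anchor, was lower by 0.70 and NEDD4L, a ubiquitin ligase, by 0.57. Without KM12SM replicate 1 the adjusted p of NEDD4L was 0.0968 and without SW620 replicate 1 it was 0.0701. DCC was dim in both lines, at 4.03 ± 0.41 and 3.73 ± 0.22 (SD, n = 3), and did not pass (0.30 ± 0.21, adjusted p = 0.356). Of the alternatives, DCC passed with array weights alone (0.53, adjusted p = 0.00938).

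The exception was PMAIP1, which encodes NOXA, a BH3-only protein that promotes apoptosis. It was higher in SW620, with 9.36, 9.02 and 9.28 against 6.77, 7.37 and 6.84 in KM12SM (-2.23 ± 0.19, adjusted p = 2.86e-07). Among 10 genes of apoptosis and survival on the chromosome, 3 were lower in SW620, 2 were higher and 5 did not pass (30% lower and 20% higher, against 12.6% and 12.4% over all probe sets). Of these genes 7 lie on 18q, where 26.7% were lower, and 3 on 18p, where 36.5% were higher. TNFRSF11A, the receptor RANK, was lower by 2.11 (adjusted p = 8.22e-06). BCL2, the inhibitor of apoptosis, had 6.47 in KM12SM and 6.61 in SW620 and did not pass (-0.15 ± 0.20, adjusted p = 0.668). YES1, a SRC family kinase of 18p, differed by 0.23 ± 0.18 (adjusted p = 0.398).

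**Figure D4:**
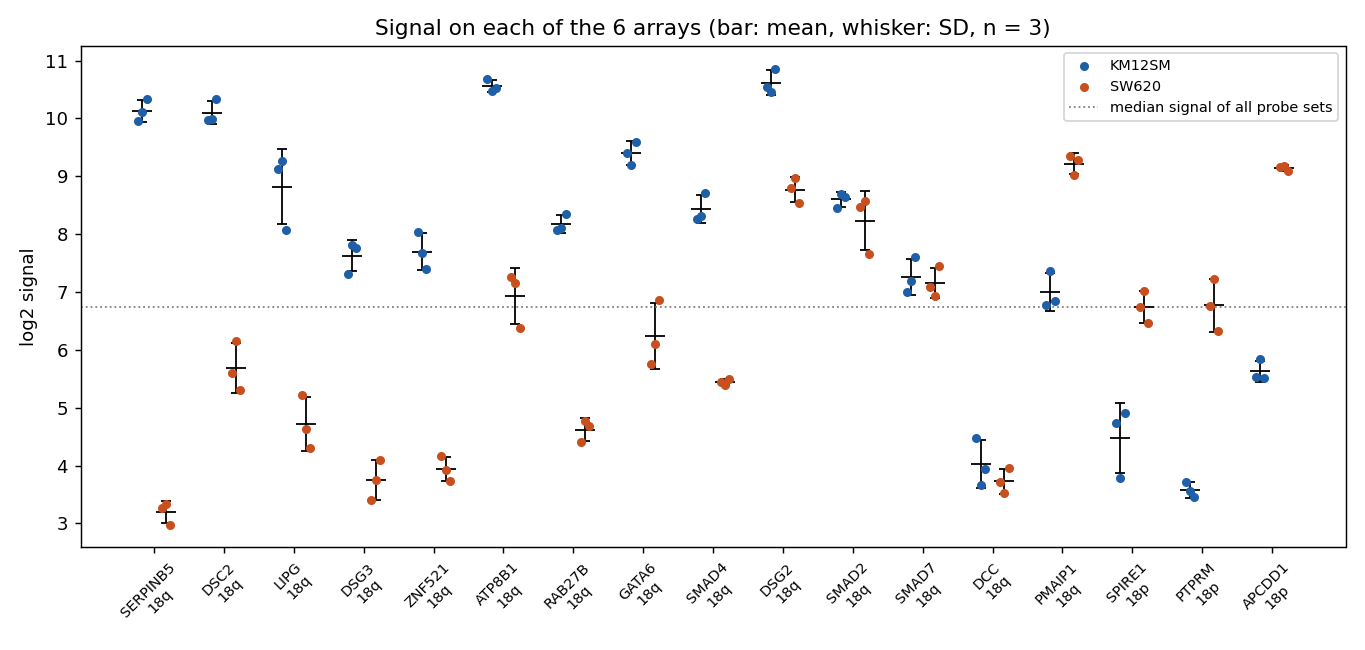
Log2 signal of 17 genes on each of the 6 arrays, with the mean (bar) and SD (whisker) of the 3 arrays of a line, KM12SM in blue and SW620 in orange. The dotted line is the median signal of all probe sets, 6.75. The lines are apart in SERPINB5 to DSG2 and in PMAIP1 to APCDD1, and overlap in SMAD2, SMAD7 and DCC.

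Of 24 transcription factors and chromatin genes of the chromosome, 9 were lower in SW620, 1 was higher and 14 did not pass, with a median difference of 0.24. The share lower was 37.5% over genes of both arms, against 26.7% over 18q, which holds 20 of them, and 12.6% over all probe sets. The lower genes include L3MBTL4, which lies on 18p. Among 18q probe sets at or above the median signal 43% were lower. ZNF521, a zinc finger protein of progenitor cells, had 8.04, 7.67 and 7.39 in KM12SM and 4.16, 3.93 and 3.74 in SW620 (3.76 ± 0.20, adjusted p = 6.88e-10). GATA6, a factor of the intestinal epithelium, had 9.41, 9.20 and 9.60 against 5.75, 6.11 and 6.86 (3.16 ± 0.24, adjusted p = 5.29e-08). The third SW620 array was the highest of its line in GATA6 and remained below all KM12SM arrays. SS18, a subunit of BAF chromatin remodelling complexes, was lower by 1.49 and ZNF236 by 1.28.

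Of 21 genes of vesicle traffic and lipid handling, 7 were lower in SW620, 4 were higher and 10 did not pass, with a median of 0.21. The shares were 33.3% lower and 19% higher, against 12.6% and 12.4% over all probe sets. The lower genes were among the 15 on 18q and the higher ones among the 6 on 18p. Over all named probe sets of the arms the shares were smaller, at 26.7% lower on 18q and 36.5% higher on 18p. Among those at or above the median signal they were 43% and 56.2%. LIPG, the endothelial lipase, had 9.13, 9.26 and 8.08 in KM12SM and 5.22, 4.64 and 4.30 in SW620 (4.10 ± 0.28, adjusted p = 1.96e-08). RAB27B, a GTPase of exosome secretion, had 8.07, 8.10 and 8.35 against 4.40, 4.77 and 4.69 (3.55 ± 0.18, adjusted p = 3.69e-10). OSBPL1A, an oxysterol-binding protein of late endosomes, was lower by 2.23. NPC1, the cholesterol transporter of lysosomes, did not pass (0.21 ± 0.17, adjusted p = 0.444). Of the 18p members, RAB31, a GTPase of endosomes, was higher in SW620 with a difference of -1.5, LPIN2, a phosphatidate phosphatase, with one of -1.36, and NAPG, a SNAP protein of vesicle fusion, with one of -1.22.

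On 18p the largest differences were those of APCDD1, an inhibitor of Wnt signalling at the membrane, and PTPRM, a receptor tyrosine phosphatase of cell contacts. APCDD1 had 5.54, 5.84 and 5.51 in KM12SM and 9.16, 9.18 and 9.09 in SW620 (-3.51 ± 0.17, 11.4-fold higher in SW620, adjusted p = 2.62e-10). PTPRM had 3.72, 3.57 and 3.45 against 6.76, 7.23 and 6.32 (-3.19 ± 0.21, adjusted p = 1.22e-08), and the KM12SM values were so dim that this size is limited by the background. SPIRE1, an actin nucleator, had 4.74, 3.79 and 4.91 against 6.75, 7.01 and 6.47 (-2.26 ± 0.25, adjusted p = 4.78e-06). Most other differences on 18p were smaller: 7 of the 23 genes higher in SW620 reached 2-fold, against 28 of the 50 lower genes of 18q. PTPRM was the only one of 9 measured adhesion genes, other than the desmosomal cadherins, that passed the test.

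TYMS, the thymidylate synthase gene of 18p, had 9.47, 9.58 and 9.43 in KM12SM and 10.18, 10.16 and 9.89 in SW620, a 1.5-fold higher signal (-0.58 ± 0.17, adjusted p = 0.0172). Its arrays did not overlap between the lines, and its adjusted p was 0.067 without KM12SM replicate 1, 0.0953 without SW620 replicate 1 and 0.0591 without SW620 replicate 2. THOC1, a subunit of the mRNA export complex THO, was higher with a difference of -0.75 (adjusted p = 0.0214), and in 4 of the 6 fits that left out an array it no longer passed (adjusted p 0.0524 to 0.0988, replicates 1 and 3 of KM12SM and 1 and 2 of SW620). CHMP1B, of the ESCRT-III complex, and CEP192, of the centrosome, were higher in SW620, with differences of -1.22 and -0.63. CEP192 missed the threshold when either replicate 1 was left out, at 0.053 for KM12SM and 0.0636 for SW620. PSMG2, an assembly factor of the proteasome, differed by -0.87, and NDUFV2, a subunit of respiratory complex I, by -0.77. The single gene of 18p that was lower in SW620, L3MBTL4, a chromatin reader, differed by 0.67. It was not called once replicate 3 of KM12SM, or replicate 1 of SW620, was removed.

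Among 15 genes of mitosis and chromosome segregation 2 were lower, 3 were higher and 10 were not called (13.3% and 20%, against 12.6% and 12.4% over all probe sets). Of 8 genes of nucleotide and mRNA synthesis these were 1, 2 and 5 (12.5% lower and 25% higher), with RPRD1A, a regulator of RNA polymerase II, lower by 0.90. Of 9 genes of ubiquitin and the proteasome they were 2, 1 and 6 (22.2% lower and 11.1% higher). The list of 9 mitochondrial genes split into 3 lower, 3 higher and 3 not passing (33.3% each way). It includes CYB5A, lower by 1.22, although its product, cytochrome b5, is mainly a protein of the endoplasmic reticulum, and without it 2 of 8 were lower and 3 higher. The mitosis, nucleotide, ubiquitin and mitochondrial lists each hold genes of both arms, whose shares were 26.7% lower on 18q and 36.5% higher on 18p. TIMM21, of the inner membrane translocase, and ACAA2, a thiolase of fatty acid oxidation, were higher, with differences of -1.17 and -1.11, although both lie on 18q. HSBP1L1, towards the end of 18q, was lower by 2.25. PSTPIP2, an adaptor of the actin cytoskeleton, and CABYR, a calcium-binding protein of sperm, were higher in SW620 on 18q, with differences of -2.17 and -1.61. Their brightest SW620 arrays reached 6.33 and 6.47, below the median signal.

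Of the 42 probe sets without a symbol, the largest difference was 3.66 (TC1800009222.hg.1, 7.07, 7.20 and 7.18 in KM12SM and 3.50, 3.41 and 3.56 in SW620, adjusted p = 1.16e-10), and the next was 2.86 (TC1800006897.hg.1). The calls held to different degrees when 1 array at a time was left out. In all 6 such fits 39 of the 50 genes lower on 18q kept their call, as did 15 of the 23 higher on 18p and 10 of the 13 higher on 18q.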

How the data were processed

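Total RNA of KM12SM and SW620 was measured on Clariom S arrays, 3 for each line. The authors used RMA in Transcriptome Analysis Console to normalise the arrays and summarise them to log2 signals (version: not given in the sources used here), and these deposited log2 values were used as they stand. Arrays give no counts, and the number of arrays limits the precision. Differences were fitted with limma 3.58.1 in R 4.3.3 (lmFit and eBayes, two-sided), with Benjamini-Hochberg adjusted p-values over the 21448 probe sets and a threshold of 0.05, and the code was tested on simulated data. Probe sets of chromosome 18 were taken from their identifiers. Of these, 250 had 1 gene symbol in the platform annotation, and all 250 were found on chromosome 18 in RefSeq (GRCh38.p14) by Entrez ID. The sources used here do not give the array's build, so no positions of probe sets are printed. The arms were divided at the largest gap between neighbouring gene starts. Brighter probe sets are those with a mean at or above the median, 6.75.

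Genes were named by a rule: 10 listed genes, the 10 largest called differences in each direction and up to 4 called genes of each list. L3MBTL4, IMPACT and the uncalled desmosomal cadherins, as well as the unnamed probe sets, were added after their values were seen. The members and the lists were chosen with earlier results of these data known. Alternatives were quantile normalization, median centring, filters at the 25th and 50th percentile, trend and robust eBayes, array weights, a replicate block, probe sets with 1 symbol, other call rules and leaving out each array. Leaving out replicate 3 of both lines was chosen after seeing the data.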

Additional observations from a re-analysis of the deposited data

How the results depend on the processing

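The opposite directions of the arms held in every alternative: the 18p median stayed between -0.56 and -0.23 and the 18q median between 0.10 and 0.42, and of the members called on chromosome 18 none changed sign. The number of arrays and dim signals limit what could be seen. With array weights, the counts rose to 80 lower and 67 higher on chromosome 18, 3 lower and 33 higher on 18p, 70 lower and 29 higher on 18q, and 4732 lower and 4548 higher on the other autosomes, and the gap in median between chromosome 18 and the other autosomes turned to -0.0070. The 2-fold rule left 31 lower and 13 higher on chromosome 18, 0 lower and 7 higher on 18p, 28 lower and 6 higher on 18q, and 1126 lower and 922 higher on the other autosomes. At an unadjusted p under 0.05 with no overlap there were 2 lower on 18p and 21 higher on 18q. Without probe sets under the 50th percentile, 18p had 0 lower and 18q 6 higher, with median differences of 0.100 (chromosome 18), -0.56 (18p), 0.42 (18q) and 0.087 (chromosome 18 minus the other autosomes), and under the 25th 0.103, -0.53, 0.35 and 0.097. Centring the arrays moved the median of the other autosomes to -0.030. Leaving out 1 array at a time gave 0 to 2 lower and 16 to 25 higher on 18p, 41 to 51 lower and 10 to 16 higher on 18q, 44 to 56 lower and 27 to 44 higher on chromosome 18, and 1982 to 2545 lower and 1729 to 2597 higher on the other autosomes. The medians then ranged from -0.36 to -0.23 on 18p, 0.12 to 0.20 on 18q, 0.022 to 0.061 on chromosome 18 and -0.013 to 0.059 for chromosome 18 minus the other autosomes. Without replicate 3 of both lines, 18p had 2 lower and a median of -0.35, the gap to the other autosomes was -0.010, and PIGN missed the threshold (adjusted p = 0.0577). The cause of these changes was not tested. Whether the replicate numbers pair the arrays was not settled. The correlation of deviations from the line means was 0.0577, 0.0951 and 0.1491 between same-numbered arrays of the lines. Between arrays with different numbers it ranged from -0.142 to 0.1001. With a replicate block, 18q had 54 lower and 15 higher and 18p 1 lower and 23 higher.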
